A study of Mus musculus with 8 samples.

Results

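Transcripts of 10 tubulin genes were examined in the mouse auditory nerve, 4 for alpha-tubulin (Tuba1a, Tuba1b, Tuba4a, Tuba8) and 6 for beta-tubulin (Tubb2a, Tubb2b, Tubb3, Tubb4a, Tubb5, Tubb6). They were picked by gene symbol as alpha and beta isotypes of neurons and glia. All 10 were found among the 15035 genes of the deposited table, and all 10 passed the filter on low values. RNA was sequenced from microdissected auditory nerves of mice aged 21 postnatal days, and both cochleas of a mouse (2) went into 1 library. Of 8 libraries, 4 were labelled wild type (replicates 1 to 4), and the other 4 carried the label heterozygote for Mef2c, a MADS-box transcription factor gene (replicates 5 to 8). The allele, strain and sex of the mice are not given in the sources used here. The comparison asks which transcripts differ with 1 copy of Mef2c altered.

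Alpha- and beta-tubulin pair into dimers that polymerise head to tail into microtubules, the tracks of axonal transport and the scaffold along which myelinating glia extend their processes. Mammals make several isotypes of each from separate genes. The isotypes are nearly alike in the folded core and differ mainly in the acidic C-terminal tail, which faces outward and carries glutamylation and, on most alpha isotypes, removal and return of a final tyrosine. TUBB3 is a widely used marker of neurons, and TUBB4A is abundant in oligodendrocytes, the myelinating glia of the central part of the nerve. TUBA1A and TUBB2B are prominent in young neurons, and TUBB5 is made in many cell types.

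The coding ends show where the isotypes part and which genes reads can confuse. Each line gives the last 60 coding bases, stop codon included, of a GENCODE M21 transcript on GRCm38 (mm10), 5′ to 3′ in the direction of transcription, with codons for glutamate and aspartate in capitals. The Tuba4a end lies at chr1:75215622-75215681 on the minus strand. The Tuba8 end lies at chr6:121226020-121226079 on the plus strand. The Tubb2a end lies at chr13:34074468-34074527 and the Tubb2b end at chr13:34127471-34127530, both on the minus strand. The Tubb3 end lies at chr8:123421623-123421682 on the plus strand and the Tubb4a end at chr17:57080690-57080749 on the minus strand.
Tuba4a: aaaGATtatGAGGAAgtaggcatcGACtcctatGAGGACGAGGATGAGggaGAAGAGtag
Tuba8: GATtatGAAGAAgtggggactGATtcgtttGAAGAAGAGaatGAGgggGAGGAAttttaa
Tubb2a: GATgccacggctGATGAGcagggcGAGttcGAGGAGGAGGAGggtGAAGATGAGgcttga
Tubb2b: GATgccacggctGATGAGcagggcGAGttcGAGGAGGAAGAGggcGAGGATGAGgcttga
Tubb3: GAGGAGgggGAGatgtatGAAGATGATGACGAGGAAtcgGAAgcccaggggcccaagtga
Tubb4a: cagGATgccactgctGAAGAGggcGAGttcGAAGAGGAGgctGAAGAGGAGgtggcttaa

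Between 10 and 11 of the 19 sense codons on each of these lines are acidic. Tuba4a stops after GAG, and Tuba8 ends in TTT, so neither ends in a tyrosine codon. The whole coding sequences of Tuba1a and Tuba1b are 98.3% identical. Tubb2a and Tubb2b differ at 3 of 60 bases and are 96.5% identical over the coding sequence, whereas Tubb2a and Tubb3 are 83.5% identical. The close pairs are also neighbours: 15271 bases separate Tuba1a from Tuba1b on chromosome 15, and 48740 bases separate Tubb2a from Tubb2b on chromosome 13.

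The share of a transcript's 50-base windows that another gene also holds measures how far reads could be split between genes. It was 75.5% for Tuba1a, 83.1% for Tuba1b, 49.6% for Tubb2a and 39.3% for Tubb2b. Values of these 4 genes are therefore uncertain as levels of 1 gene, since how shared reads were counted is not given in the sources used here. Tuba4a shared 48.8% of its windows, nearly all with Stk16, a kinase gene on the opposite strand that overlaps it by 1379 bases. Stk16 had 844.4 to 1218 normalized counts. If counting did not use the strand, reads of Tuba4a and Stk16 in that overlap cannot be told apart. Tuba8 shared 14.7%, Tubb4a 0.184% and Tubb5 0.115%, and Tubb3 and Tubb6 shared 0.

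The libraries were read first as wholes. The deposited values are gene read counts scaled by a factor per library, called normalized counts here, and the reads behind them were estimated at 13363385 to 21507181 per library. Mef2c itself was higher in every heterozygote-labelled library (583.3 to 735.1 normalized counts) than in any wild-type library (402.2 to 508.7). This goes against the label, and the values are per gene, so a targeted exon was not analysed here. Wild-type library 1 stood apart from the other wild-type libraries (0.85 on the first residual component, which carried 34.5% of the variance within genotypes), and it and heterozygote-labelled library 5 were low in Xist, at 12 and 7.6 normalized counts, against 5175 to 8615 in the other 6. All 14 neuron markers examined were present in every library, with Nefl, a neurofilament gene, at 33662 to 42069 normalized counts. Oligodendrocyte markers differed between genotypes: 11 of 12 had a lower mean in the heterozygote-labelled libraries and 4 passed the test described below, with summed levels of 24386 to 31130 in wild type and 9372 to 17933 in the heterozygote-labelled libraries.

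Per kilobase of transcript, Tuba1b and Tuba1a were the most abundant of the 10 genes and Tuba8 the least. In wild type the mean levels, in normalized counts per kilobase, were 11683 ± 905 for Tuba1b, 9626 ± 1331 for Tuba1a and 4722 ± 366 for Tubb3 (SD, n = 4 each). Next came Tubb4a at 2872 ± 276, Tubb5 at 2385 ± 111, Tuba4a at 1901 ± 92.7 and Tubb2a at 1847 ± 89.8. Tubb2b had 343.0 ± 121, Tubb6 137.6 ± 40.0 and Tuba8 90.8 ± 7.91. Tuba4a and Tubb2a differed by less than the spread between libraries in both genotypes. In wild type the ranges of Tuba1a and Tuba1b overlapped, as did those of Tubb6 and Tuba8. In the heterozygote-labelled libraries the order was the same except that Tubb4a (2355 ± 192) and Tubb5 (2356 ± 151) had levels that could not be ordered. Together the 10 genes took 0.402% ± 0.0154 of all normalized counts in wild type and 0.351% ± 0.0124 in the heterozygote-labelled libraries (SD, n = 4 each). The ranges of this share did not overlap.

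**Figure D1:**
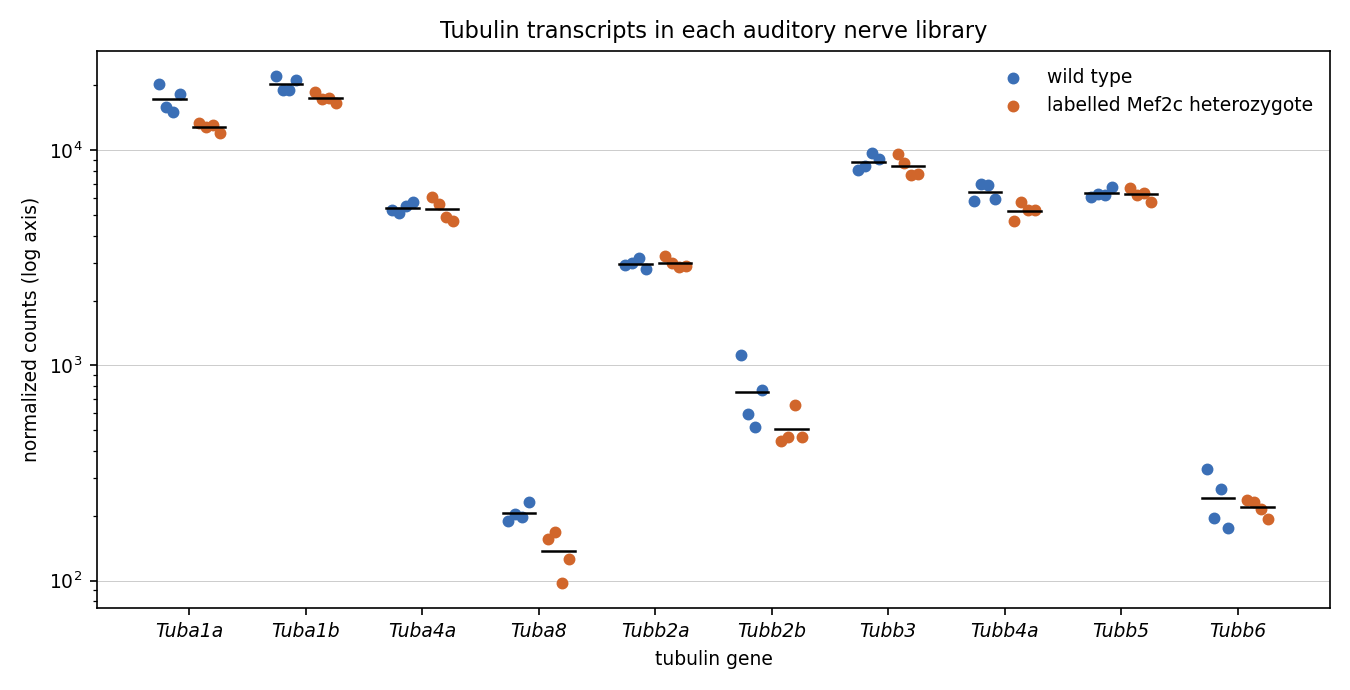
Normalized counts (log axis) of the 10 tubulin genes in each library. Points are libraries, left to right in the order of their replicate numbers, and black lines are group means; Tuba1a, Tuba1b, Tuba8 and Tubb4a have all 4 heterozygote-labelled points below the wild-type points.

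The genotypes were compared with limma-trend on log2(value + 1) over 14870 genes, with Benjamini-Hochberg adjustment, and a gene was called at an adjusted p under 0.05. None of the 10 tubulin genes was called (0 of 10, where 0.0807% of all genes tested were, 0.074% in the lower direction), with limma-trend adjusted p from 0.220 to 0.955. At an unadjusted limma-trend p under 0.05 there were 4 of the 10, Tuba1a, Tuba8, Tubb2b and Tubb4a, all lower in the heterozygote-labelled libraries, where 14.1% of all genes tested were under 0.05 and 7.34% were also lower. In 4 of the 10, Tuba1a, Tuba1b, Tuba8 and Tubb4a, all 4 libraries labelled heterozygote lay below all wild-type libraries, against 3.86% of all genes tested (7.26% without overlap in either direction). Means on the log2 scale were lower in 9 of 10, against 47.7% of all genes, and the median log2 fold change was -0.16, against 0.02 for all genes. By the FDR of the authors' deposited table, Tuba1a passed 0.05 (1 of 10), where 0.938% of its genes with a p-value had such an FDR and were lower. These are bulk samples, so fewer cells of a type and less RNA per cell cannot be told apart.

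These counts depended on whether values were corrected for transcript length. After that correction 6 of the 10 genes were lower, where 7775 of all 14870 genes tested were. The median log2 fold change was -0.06, against -0.01 for all genes. The genotypes did not overlap in 2 of the 10, Tuba1a and Tuba8, both lower. Of all 14870 genes, 611 were lower without overlap (6.33% without overlap in either direction).

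**Figure D2:**
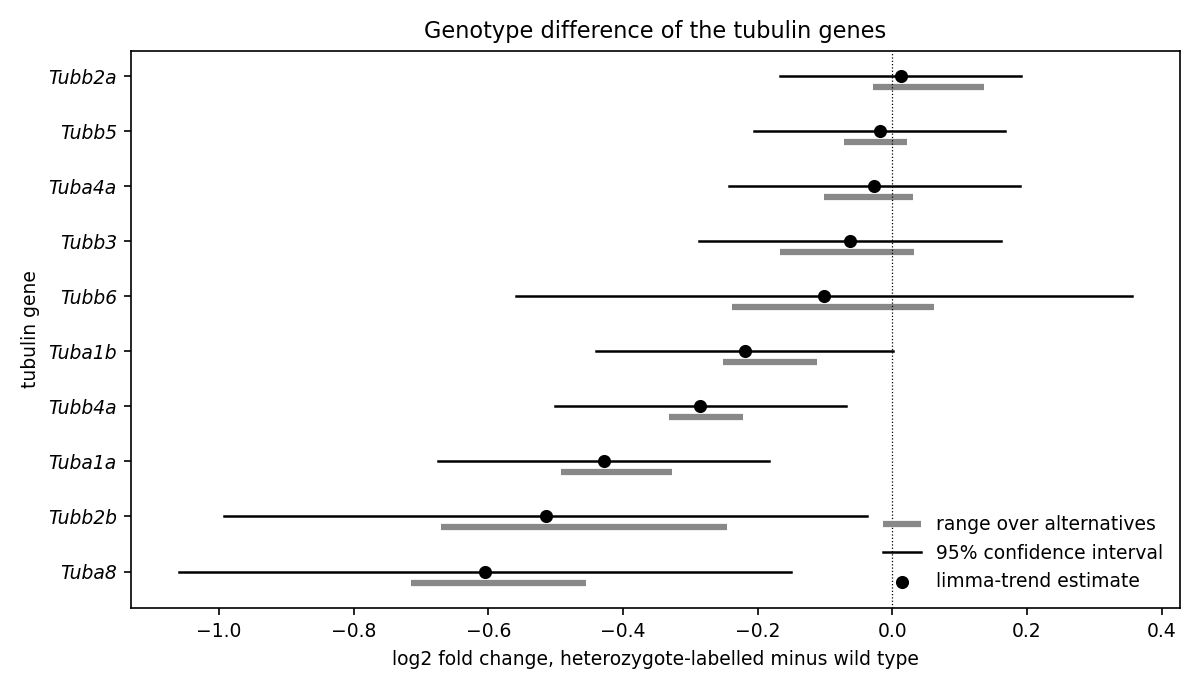
Log2 fold change of each tubulin gene, libraries labelled heterozygote minus wild type. Points are limma-trend estimates, thin lines 95% confidence intervals and grey bars the range over 20 other ways of processing; the intervals of Tuba1a, Tuba8, Tubb2b and Tubb4a lie below 0, and no gene passed after adjustment over all genes.

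Tuba1a, the main alpha isotype of growing neurons, had the smallest p of the 10. Its wild-type libraries had 20370, 15807, 15085 and 18159 normalized counts (listed here and below by replicate number), and those labelled heterozygote had 13373, 12826, 13090 and 11967. The highest heterozygote-labelled library lay below the lowest wild-type library, and wild-type library 1 was the highest of all. On the log2 scale the difference was -0.43 (SE 0.11, 95% confidence interval -0.67 to -0.18), and limma-trend gave an adjusted p of 0.220. Over the alternatives the adjusted p ran from 0.0268 to 0.587, and the unadjusted p stayed under 0.05 in all 20. The adjusted p passed 0.05 in 1 of the 20, with the first residual component as a covariate. That covariate is built from deviations from the genotype means, so it leaves the fold change as it was and alters only its error. The authors' deposited table gave a ratio of 0.738 and an FDR of 0.014.

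Tuba1b, the near-identical neighbour used by many dividing and resting cells, was the highest of the 10 in normalized counts. Its wild-type libraries had 22105, 19032, 19025 and 21293 normalized counts, and those labelled heterozygote had 18670, 17204, 17476 and 16530. The groups did not overlap, but the gap between wild-type library 3 and heterozygote-labelled library 5 was small. Its log2 fold change came to -0.22 (SE 0.10), with an adjusted p of 0.355 from limma-trend. With the correction for transcript length the log2 fold change was -0.11. The authors' deposited table gave a ratio of 0.858 and an FDR of 0.191.

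Tuba8, a low-level alpha isotype, had the most negative fold change. Wild-type libraries had 189.5, 205.0, 197.1 and 230.7 normalized counts, and those labelled heterozygote had 156.4, 168.2, 98.0 and 126.6. The groups did not overlap, with library 7 the lowest. Its log2 fold change came to -0.61 (SE 0.21), and limma-trend gave an adjusted p of 0.278. About 104 reads, an estimate from the spacing of the values, stood behind the lowest one. The 95% Poisson interval from that estimate, 80.1 to 118.8 normalized counts, covers counting error only and not the spread between mice.

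Tuba4a, whose coding sequence, like that of Tuba8, does not end in a tyrosine codon, did not separate by genotype. Its wild-type libraries had 5269, 5119, 5483 and 5724 normalized counts, and those labelled heterozygote had 6048, 5642, 4896 and 4706. The highest and the lowest of all 8 libraries, 5 and 8, were both heterozygote-labelled. Its difference on the log2 scale, -0.03, had a 95% confidence interval of -0.24 to 0.19, and limma-trend gave an adjusted p of 0.917.

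Tubb4a, the beta isotype of oligodendrocytes, was the only beta gene whose genotypes did not overlap. Wild-type libraries had 5783, 6946, 6910 and 5961 normalized counts, and those labelled heterozygote had 4695, 5738, 5287 and 5266. Library 5 was the lowest, and the highest heterozygote-labelled library, 6, lay only just under wild-type library 1. Its log2 fold change came to -0.29 (SE 0.10), and limma-trend gave an adjusted p of 0.278. The authors' deposited table gave a ratio of 0.82 and an FDR of 0.143.

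Tubb3, the neuronal beta isotype, had overlapping genotypes. Its wild-type libraries had 8094, 8477, 9660 and 9055 normalized counts, and those labelled heterozygote had 9628, 8767, 7687 and 7773. Libraries of both genotypes were among the highest and the lowest. On the log2 scale the difference was -0.06, with a 95% confidence interval of -0.29 to 0.16 and a limma-trend adjusted p of 0.796.

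Tubb2a and Tubb2b are the near-identical pair on chromosome 13. Tubb2a had 2924, 2999, 3157 and 2813 normalized counts in wild type and 3213, 2998, 2876 and 2911 in the heterozygote-labelled libraries. The ranges overlapped almost fully, and the log2 fold change was 0.01 (95% confidence interval -0.17 to 0.19, limma-trend adjusted p 0.955). Tubb2b, which is known from the migration of young neurons, had 1114, 594.1, 517.7 and 768.7 normalized counts in wild type and 445.1, 464.8, 656.1 and 464.7 in the heterozygote-labelled libraries. Wild-type library 1 was far above the rest, and library 7 lay inside the wild-type range. Its log2 fold change came to -0.51 (SE 0.22), and limma-trend gave an adjusted p of 0.330. It moved to -0.30 when wild-type library 1 was left out and to -0.25 when both low-Xist libraries (2) were.

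Tubb5, a broadly made beta isotype, had 6052 to 6736 normalized counts in wild type, with a median of 6241, and 5721 to 6682 in the heterozygote-labelled libraries, with a median of 6281. On the log2 scale the difference was -0.02 (95% confidence interval -0.21 to 0.17, limma-trend adjusted p 0.935). Tubb6, the other low beta isotype, had 329.6, 194.8, 266.7 and 176.3 normalized counts in wild type and 235.7, 231.8, 214.9 and 194.1 in the heterozygote-labelled libraries. All 4 of the latter lay inside the wild-type range. The interval of its log2 fold change, -0.56 to 0.36, was wide, so a difference was not detectable with these libraries.

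The make-up of each pool was then described as shares per kilobase, which do not depend on the scaling of a library. Tuba1a made up 41.2% ± 1.80 of the 4 alpha genes in wild type and 37.3% ± 0.662 in the heterozygote-labelled libraries (SD, n = 4 each). Tuba1b made up 50.2% ± 0.981 and 52.6% ± 0.559, and neither gene's shares overlapped between genotypes. Among the 6 beta genes, the share of Tubb2a was 15.0% ± 0.535 in wild type and 16.3% ± 0.422 in the heterozygote-labelled libraries, again with no overlap. No test was run on the shares. Shares within a pool are tied, since a lower share of 1 gene raises those of the others. The normalized counts of Tubb2a had a log2 fold change of 0.01. Tubb4a had 23.3% ± 1.67 and 20.6% ± 2.15 (SD, n = 4 each), where library 5 was at 17.4% and the other 3 heterozygote-labelled libraries at 21.4% to 21.9%. Tubb3 was the largest share of the 6 beta genes at 38.3% ± 1.58 and 39.5% ± 2.32. The shares of the other 5 genes also overlapped between genotypes, from 0.227% to 0.420% for Tuba8 up to 18.1% to 21.6% for Tubb5. When Tuba1c and Tubb4b were added to the pools, Tuba1a and Tubb2a still did not overlap and Tuba1b did. In these wider pools the wild-type share of Tubb3 was 28.6%, and Tubb4b took 25.5% of the beta pool and Tuba1c 4.65% of the alpha pool. Summed per kilobase, the 4 alpha genes were 1.90 ± 0.252 times the 6 beta genes in wild type and 1.66 ± 0.0449 times in the heterozygote-labelled libraries (SD, n = 4 each), with overlapping ranges. These sums leave out Tubb4b and Tuba1c, so the ratio holds for the listed genes only.

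**Figure D3:**
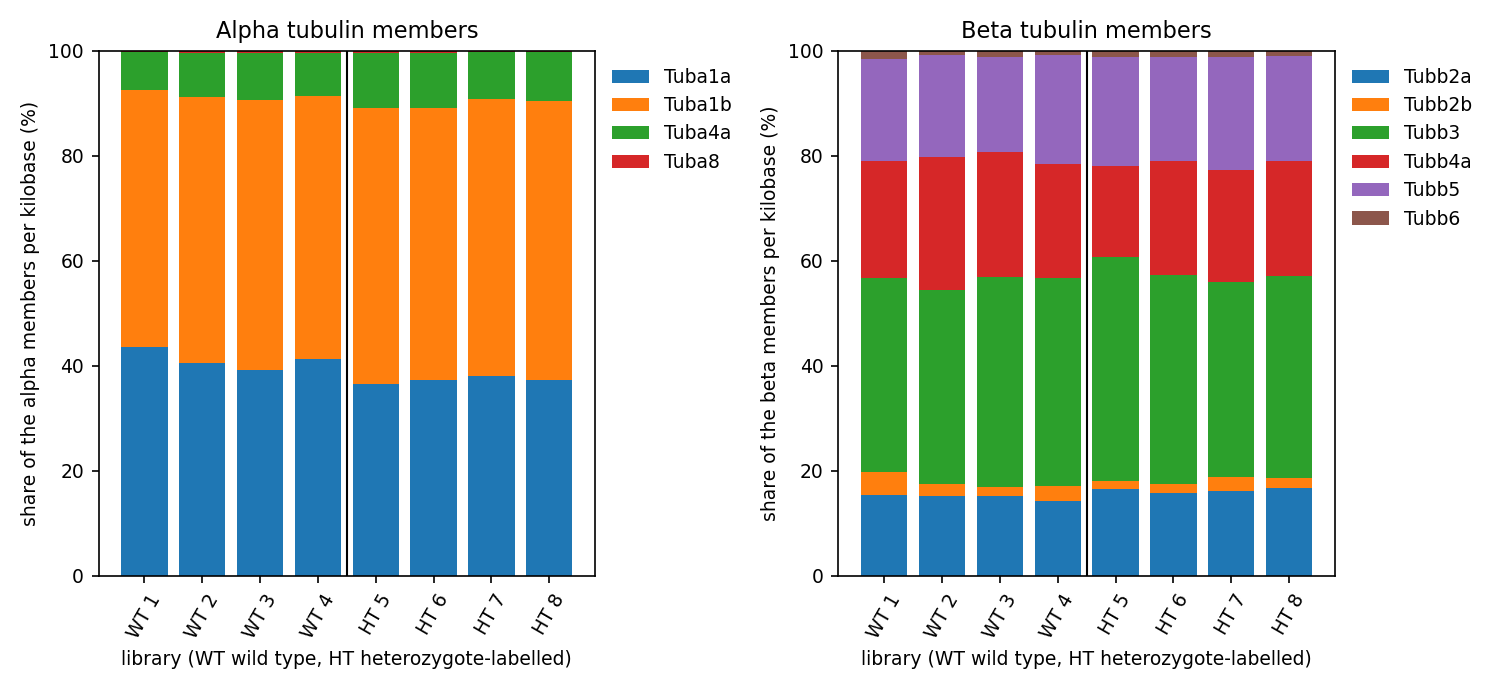
Share (%) of each gene in the alpha pool (left) and the beta pool (right) per kilobase of transcript, 1 bar per library, with the vertical line between wild type and labelled heterozygote. Tuba1a takes 39.3% to 43.6% of the alpha pool in wild type and 36.5% to 38.1% in the heterozygote-labelled libraries.

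Because the nerve mixes cell types, the tubulin genes were set beside summed cell type markers in the same libraries. Tubb4a and the oligodendrocyte markers were both lower in all 4 libraries labelled heterozygote. Library 5 had the lowest Tubb4a and the lowest marker sum (9372), and library 6 had the highest of both within its genotype (17933). Within wild type the order did not match: wild-type library 1 had the highest marker sum, 31130, and the lowest Tubb4a. The correlation of Tubb4a with the marker sum was 0.42 for deviations from the genotype means and 0.61 without wild-type library 1, as a description. The same values were 0.57 and 0.79 for osteoblast markers and 0.22 and 0.67 for astrocyte markers. For markers of myelinating Schwann cells they were -0.78 and -0.69. A positive correlation within genotypes was thus not particular to the oligodendrocyte markers. The part of the oligodendrocyte markers in the Tubb4a difference was not tested.

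Neuron markers gave a different picture. Of 14 neuron markers, 8 were lower and 6 higher in the heterozygote-labelled libraries and 0 had an unadjusted limma-trend p under 0.05. Their sums, dominated by the neurofilament genes, were 222848 to 305165 in wild type and 247922 to 296726 in the heterozygote-labelled libraries. Tubb3 followed that sum from library to library, with a Pearson r of 0.86 over 8 libraries and 0.89 for deviations from the genotype means. Wild-type library 3 and heterozygote-labelled library 5 were the highest in both. The libraries share a scaling factor per library across all genes, and these values describe the libraries only.

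**Figure D4:**
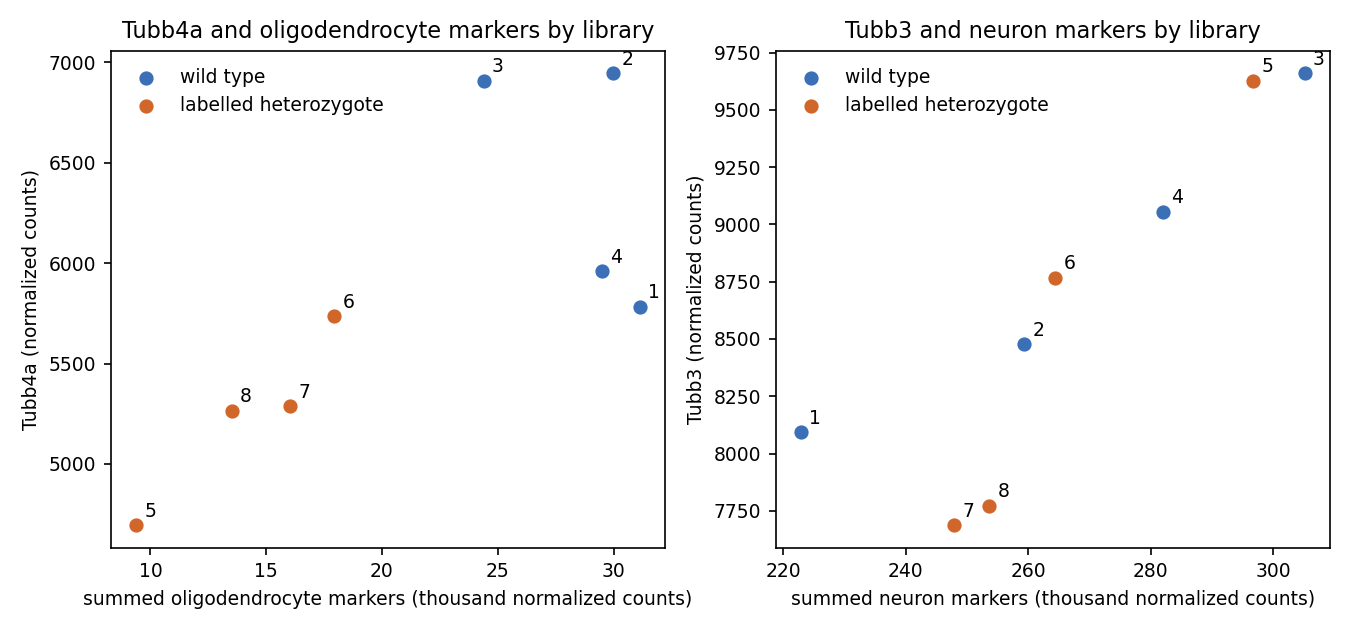
Left, Tubb4a against the summed oligodendrocyte markers; right, Tubb3 against the summed neuron markers, all in normalized counts (sums divided by 1000). Points are libraries with their replicate numbers; on the left the genotypes separate on both axes, and on the right they mix along 1 rising band.

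Schwann cell markers were read gene by gene, since several myelin genes are made by Schwann cells and oligodendrocytes alike. Pmp22, a peripheral myelin gene, had a log2 fold change of -0.05. Mbp and Mag, made by both kinds of glia, had log2 fold changes of -0.86 and -0.94. The list as a whole had 9 of 12 genes lower, with summed levels of 301359 to 361008 in wild type and 208613 to 236119 in the heterozygote-labelled libraries. Tuba1a was lower in the same 4 libraries. Its correlation with this sum was 0.63 for deviations from the genotype means and 0.18 without wild-type library 1. For endothelial markers these values were 0.85 and 0.56, and for satellite and non-myelinating glia 0.79 and 0.42. For oligodendrocyte markers they were 0.16 and 0.03. Endothelial sums were lower, at 7437 to 9705 in wild type against 6613 to 7294. Of 8 endothelial genes 4 were lower and 4 higher, with a median log2 fold change of 0.01. At an unadjusted limma-trend p under 0.05 there were 3 of the 8, all lower, against 7.34% of all genes tested. Of 8 astrocyte markers 6 were lower, with a median log2 fold change of -0.45. Gfap, Aqp4 and Aldoc were lower without overlap between genotypes (log2 fold changes -0.99, -0.73 and -0.42), against 3.86% of all genes tested. The astrocyte sums overlapped, with S100b the largest part of them. All 4 neutrophil genes measured had higher means in the heterozygote-labelled libraries, with a median log2 fold change of 3.67. S100a8, S100a9 and Ngp were higher without overlap, against 506 of all 14870 genes tested. S100a8 had 9.5 to 53.2 normalized counts in wild type and 88.0 to 1145 in the heterozygote-labelled libraries. The neutrophil sums did overlap (106.3 to 2346 against 649.1 to 6030), through Ltf at 2176 in wild-type library 1. All 9 osteoblast genes had higher means, with overlapping sums. Of 8 genes of proliferating cells 7 had higher means, with a median log2 fold change of 0.90 and overlapping sums. For deviations from the genotype means, Tuba8 had a correlation of -0.89 with the sum for proliferating cells and -0.75 with the neutrophil sum. Its highest value was 0.46, with neuron markers. The part of these cell types in the Tuba1a and Tuba8 differences was not tested.

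The 10 genes did not vary as a single block. Tuba1a and Tuba1b went together, with a Pearson r of 0.98 over 8 libraries (Spearman 1.0) and 0.94 for deviations from the genotype means. Of the 50-base windows of Tuba1a, 43.4% also lie in Tuba1b, and the part of shared reads in this value was not tested. Tuba4a and Tubb3, which share no windows, had an r of 0.87 both overall and within genotypes. Tubb2a and Tubb2b, in spite of their shared windows, had an r of -0.55 over 8 libraries. Tubb4a and Tuba1b, both lower in the heterozygote-labelled libraries, had an r of -0.89 for deviations from the genotype means. Wild-type libraries 1 and 4 were high in Tuba1a, Tuba1b and Tubb2b, whereas wild-type libraries 2 and 3 were high in Tubb4a.

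**Figure D5:**
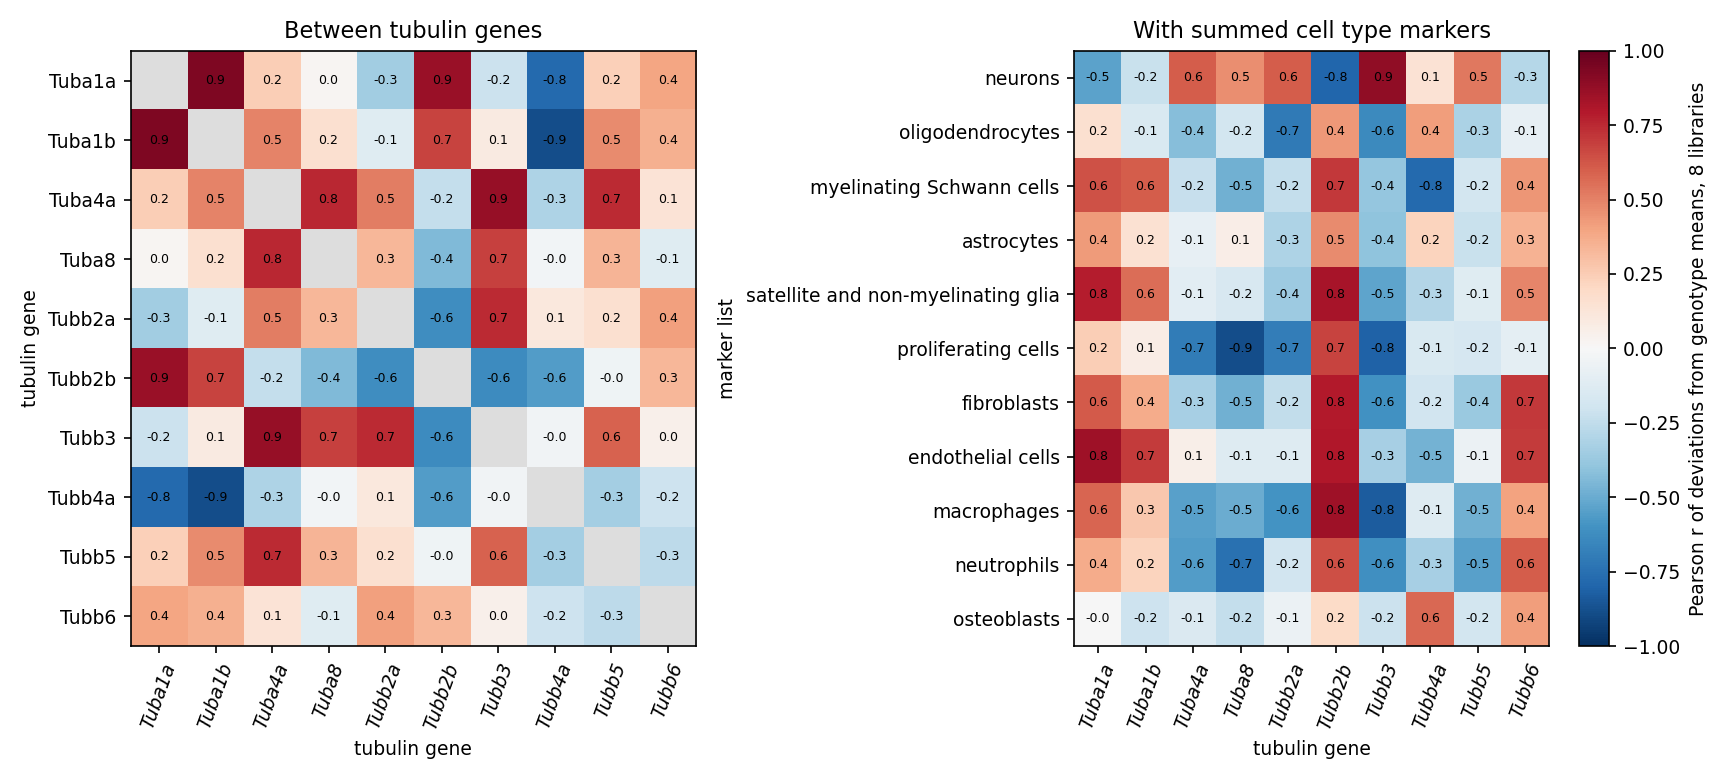
Pearson r of log2 values after subtracting each genotype's mean, over 8 libraries, between the tubulin genes (left) and with summed cell type markers (right). Tuba1a with Tuba1b (0.94), Tuba4a with Tubb3 (0.87) and Tubb3 with neurons (0.89) are among the high cells, and Tubb4a with Tuba1b (-0.89) among the low ones.

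Across all tested genes with a mean of at least 50 normalized counts, the genes most like each tubulin were found by Pearson r over the 8 libraries, which includes any genotype difference. For Tuba1a they were Bcas1 (0.99), Coq10a (0.99) and Mdp1 (0.99), and for Tuba1b Mdp1, Bloc1s2 and Nudt3 (all 0.99). For Tuba4a they were Syp, which encodes the synaptic vesicle protein synaptophysin (0.94), Ap2m1 (0.93) and Pkm (0.93). For Tubb3 they included Got1 (0.97) and Tecr (0.97). For Tubb4a they were Klhl2 (0.97), Ttyh2 (0.95) and Myrf, the myelin regulatory factor on the oligodendrocyte list (0.95). Tuba8 was closest to Alg13 (0.97), Mrpl55 and Ip6k1, Tubb2a to Rnmt (0.97), Pcdhb11 and Amigo3, and Tubb2b to Gm5148 (0.99), Rps4x and Gpx7. Tubb5 was closest to Prelid3a (0.98), Aldoart1 and Sap18, and Tubb6 to Tmem189 (0.96), Cdh10 and Ythdf1. The search ran over every such gene with only 8 libraries, so these values are a description.

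Tubulin chains are folded by a relay of prefoldin, the CCT chaperonin ring and the tubulin cofactors TBCA to TBCE with the small GTPase ARL2. Of 22 such genes, 20 had a lower mean in the heterozygote-labelled libraries, with a median log2 fold change of -0.21, and 0 were called. At an unadjusted limma-trend p under 0.05 there were 7, all lower, against 7.34% of all genes tested. Cct5, a chaperonin subunit gene, had 3799 ± 279 normalized counts in wild type against 3080 ± 176 (SD, n = 4 each). Its groups did not overlap, and the log2 fold change was -0.30, at an adjusted p of 0.243 from limma-trend. Arl2 had 1363 ± 171 and 1086 ± 100 (SD, n = 4 each). Its log2 fold change was -0.32, with an adjusted p of 0.280 from limma-trend. With the correction for transcript length, log2 fold changes were -0.20 for Cct5 and -0.27 for Arl2. The counts of this list are without that correction.

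Other tubulin genes and the genes that modify, nucleate or regulate tubulin gave 0 calls as well. Among the 6 other tubulin genes measured, 4 were lower, and 0 had an unadjusted limma-trend p under 0.05. Tuba1c, the third member of the Tuba1 group, had 2280 ± 609 and 1802 ± 418 normalized counts (SD, n = 4 each), with overlapping genotypes and a log2 fold change of -0.33. Tube1, for epsilon-tubulin of centrioles, had 24.7 to 40.3 in wild type and 48.1 to 55.3 in the heterozygote-labelled libraries, at an adjusted p of 0.395 from limma-trend. Of 7 genes that act on the terminal tyrosine or on acetylation 5 were lower, led by Atat1, the alpha-tubulin acetyltransferase gene (log2 fold change -0.35), and Svbp, the vasohibin partner (-0.31). Of 16 glutamylase and deglutamylase genes 6 were lower, and the 2 with an unadjusted limma-trend p under 0.05 were Tpgs1 (-0.40) and Nicn1 (-0.26), both parts of the polyglutamylase complex, against 14.1% of all genes tested. That count is close to the share over all genes. Of 9 genes of the gamma-tubulin ring complex, which starts new microtubules, 3 were lower, and Tubgcp4 and Tubgcp6 had log2 fold changes of 0.51 and 0.25. Free tubulin speeds the decay of its own mRNA through TTC5, which recruits the CCR4-NOT complex to ribosomes. Ttc5 had a log2 fold change of -0.31 (limma-trend adjusted p 0.381) and Cnot1, the scaffold of that complex, of 0.38 (limma-trend adjusted p 0.349). Without wild-type library 1 the log2 fold change was 0.11 for Tubgcp4, 0.12 for Tubgcp6, 0.18 for Cnot1, -0.16 for Ttc5 and -0.17 for Tuba1c. Without heterozygote-labelled library 8 it was -0.18 for Svbp and -0.19 for Tuba1c, without wild-type library 2 it was 0.39 for Tubgcp6, and without both low-Xist libraries it was -0.20 for Atat1. With the correction for transcript length, log2 fold changes were 0.16 for Cnot1, -0.07 for Svbp, -0.20 for Tpgs1 and 0.05 for Tubgcp6.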

How the data were processed

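Polyadenylated RNA of 8 auditory nerve samples was sequenced with strand-specific libraries from 50 ng of total RNA, leaving out RNA of an integrity number below 7, per the labels' protocols. STAR, Partek and DESeq2 and the build mm10 are named in the submitters' processing notes, without versions or roles; whether counting used the strand is not given in the sources used here. The authors deposited 1 signal column per sample, judged from the values to be read counts divided by a size factor. The authors also deposited a p-value and FDR, a ratio and its log2 value per gene, per the file headers, and a fold change score that was not used.

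For each library, the worth of 1 read was taken as the step that divides the largest share of values below 1000 evenly (within 0.05). It was 0.789 to 1.30 normalized counts, and 88.5% to 91.6% of such values were multiples. That is too few to recover the reads, and a count model was not fitted. The 14870 genes that reached 10 normalized counts in 4 or more libraries were tested as log2(value + 1) with limma-trend (limma 3.58.1, R 4.3.3), without covariates, with Benjamini-Hochberg adjustment. A fold change on that scale understates the change of low genes, and p-values measure the spread between mice. On simulated data for 14870 genes the fit recovered 61 of 100 genes changed 2-fold and 87 of 100 changed 4-fold. The simulated noise was normal and independent between genes, without the shared residual component of the data. Changes smaller than 2-fold were not simulated, so recovery of differences as small as those of the tubulin genes is not known. For the 10 tubulin genes, lengths, coding ends and 50-base windows came from the GENCODE M21 transcript annotated as principal, which was also the longest. Lengths of other genes were those of their longest transcript. Python 3.11.15 with pandas 2.3.3, numpy 2.4.6 and matplotlib 3.10.9 was used for the rest.

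The tubulin genes and all gene lists were chosen with earlier results of these data known, so they are described by counts and medians, with no test of a list. All 10 tubulin genes are named, with the genes past the threshold or otherwise the 2 of smallest p from each related list, and the 3 most similar genes per tubulin, except that some genes and sequences are not reported here. Other marker genes were named after their values were seen. The alternatives were pseudocounts of 0.1 and 10, other filters, no trend, sample weights, other scalings, a transcript length correction (loess, span 0.5), low Xist or the first residual component as a covariate, a fit without both low-Xist libraries (2), and fits that each leave out 1 library. Pools that include Tuba1c and Tubb4b were added after seeing the data.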

Additional observations from a re-analysis of the deposited data

Results flagged for a closer look

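In each group of 4 libraries, the gap between an extreme library and its nearest neighbour was divided by the whole range. Of 40 groups checked (counts and shares of 10 genes in 2 genotypes), 4 had a ratio above 0.829, and chance gives about 2, or 1 in 20 groups. Tubb2b had a ratio of 0.907 among heterozygote-labelled libraries, as library 7 was high at 656.1 normalized counts against 445.1 to 464.8. The share of Tuba8 in the alpha pool had 0.888 in wild type, where library 1 was low at 0.323% against 0.409% to 0.420%. The share of Tubb4a in the beta pool had 0.896 among heterozygote-labelled libraries, as library 5 was low at 17.4% against 21.4% to 21.9%. The share of Tubb6 had 0.856 among heterozygote-labelled libraries, as library 8 was low at 1.02% against 1.10% to 1.12%.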

How the results depend on the processing

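Over 20 alternatives, Tuba1a, Tuba1b, Tuba8, Tubb2b and Tubb4a kept a negative log2 fold change. For many of these the sign was fixed in advance. Other filters, no trend and the covariates leave the fold change as in the main fit. Leaving out 1 library cannot change the sign for Tuba1a, Tuba1b, Tuba8 and Tubb4a, whose genotypes do not overlap. The unadjusted limma-trend p was under 0.05 in 20 of 20 for Tuba1a and Tuba8, in 19 for Tubb4a (0.0590 with the length correction), in 12 for Tubb2b and in 7 for Tuba1b. The count of called tubulin genes was 1 with the first residual component as a covariate, where 576 of all genes were called, and 0 in the other alternatives. The count without overlap was 2 of 10 with the length correction, where 6.33% of all genes tested did not overlap. The count of shares without overlap was 3 to 5 with single libraries left out, and 5 without wild-type library 4. Leaving out a library raises such counts by itself. In normalized counts, 1298 to 3101 of all 14870 genes then did not overlap, against 1080 with all 8 libraries. A count over all genes is not available for shares. With the residual component, Tuba1a, Mef2c, Cct5, Tubgcp4 and Cnot1 had limma-trend adjusted p of 0.0268, 0.0404, 0.0456, 0.0422 and 0.0378. The component comes from deviations from the genotype means in these same data. It leaves the fold changes as they were and takes up residual spread by design, so no conclusion is drawn from these p-values. Genes near 0 changed sign: Tubb2a to -0.00196 with sample weights, -0.00209 with upper-quartile scaling and -0.029 without the 2 libraries low in Xist; Tubb3 to 0.032, Tubb5 to 0.0070 and Tubb6 to 0.0054 with the length correction; Tubb5 to 0.016 with quantile normalization; and Tubb6 to 0.042 with sample weights and 0.026 without the 2 libraries low in Xist. With single libraries left out, log2 fold changes ran from -0.091 to 0.030 for Tuba4a, -0.021 to 0.042 for Tubb2a, -0.052 to 0.023 for Tubb5 and -0.24 to 0.062 for Tubb6. The cause was not tested. No paired analysis was possible because replicate numbers are not shared between genotypes. Counting error is largest for Tuba8 and Tubb6, with as few as 104 and 146 estimated reads.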
